A study of Arabidopsis thaliana with 236 samples.

Results

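The comparison described here set pericycle cells of nitrogen-treated Arabidopsis thaliana roots against pericycle cells of rhizobium-treated roots at 20 and 24 h after the treatment. Arrays were chosen by sample title, which gave 13 of the 236 arrays of the series: 3 nitrogen arrays at 20 h, 3 nitrogen arrays at 24 h, 3 rhizobium arrays at 20 h and 4 rhizobium arrays at 24 h. Rows of the same locus were averaged, nitrogen minus rhizobium was taken within each hour, and both hours had equal weight. No arrays of the standard low-nitrate course entered, so a locus that is higher on nitrogen arrays may have been high under nitrate, low with the bacterium, or both.

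The study followed gene expression over time in sorted cortex and pericycle cells after nitrate supply or inoculation. All plants were of the accession Col-0 and grew for 9 days on 0.1 mM KNO3 plates with sucrose, in 16 h of light and 8 h of dark. In the nitrogen groups, seedlings were moved at dawn to plates with 5 mM KNO3. In the rhizobium groups, seedlings received a culture of Sinorhizobium meliloti at an OD600 of 0.8, on 0.1 mM KNO3 per the series record. The groups therefore differed both in nitrate supply and in contact with the bacterium, and the effects of these cannot be told apart. Roots of all groups were turned into protoplasts and sorted for green fluorescence. An age of 12 days is labelled although growth is described as 9 days, and neither the marker line nor the source of the replicates (separate plants or not) is given. The p-values therefore reflect variation among arrays that may be in part technical. In one place the series record pairs cortical with epidermal cells rather than with the pericycle.

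Nitrate is both a nutrient and a signal in roots. NIN-like proteins bind promoters of nitrate-inducible genes, and repressors of the HRS1 family are among the first genes they switch on and later restrain the same targets and the genes of high-affinity uptake. The pericycle surrounds the vascular tissue, gives rise to lateral roots and passes nutrients on to the xylem. S. meliloti nodulates certain legumes, and Arabidopsis forms no nodules.

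The sorted cells were checked against marker genes. NPF7.3, a transporter that pericycle cells use to load nitrate into the xylem, had a median log2 intensity of 10.68 on the 13 pericycle arrays and 7.22 on the cortex arrays of the same treatments and hours. For PHO1, which loads phosphate into the xylem, these medians were 8.19 and 5.63, and for HMA4, a zinc exporter of the stele, 9.54 and 6.50. Of the 8 pericycle and stele markers listed, these 3 were higher in pericycle by at least 1 log2 unit. TIP2;3, SKOR and AHP6 were higher by less, and BOR1 (9.57 and 10.03) and HMA2 (11.03 and 11.46) were lower. Some markers of other cell types separated the arrays more often: differences of at least 1 unit toward pericycle were found for 8 of 13 endodermis markers and for 8 of 12 from root hairs and the epidermis. Other lists did so less often: 1 of 7 phloem, 0 of 9 xylem, 0 of 5 root cap and 1 of 5 green tissue markers. Of the 4 cortex markers, 0 were higher by that much and 3 had a lower median in pericycle. The marker lists thus did not single out the pericycle, and the name is that of the sample titles. CASP1, which builds the endodermal Casparian strip, had medians of 12.56 and 7.15, and RHD6, a root hair regulator, had medians of 11.46 and 6.25. These differences were among the largest of their lists. The endodermis marker SCR was lower in pericycle (8.73 and 10.25), as were WER (10.32 and 10.82) and CPC (12.74 and 12.99) of the root hair and epidermis list. The mean level of the 13 endodermis markers ran from 6.87 to 10.71 over nitrogen arrays, median 7.72, and from 6.97 to 10.40 over rhizobium arrays, median 9.00. None of these 13 passed the test between treatments, and their median difference was -1.08, and -0.24 without the 2 arrays of lowest correlation described next. Their part in the results below was not tested. In RNA of a sorted pool, fewer cells of a type and less RNA per cell cannot be told apart.

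Individual arrays also stood apart. Array medians lay between 8.44 and 8.93, and the lowest mean correlations with the other arrays were 0.809 (rhizobium replicate 2 at 20 h) and 0.828 (nitrogen replicate 1 at 24 h). Nitrogen replicate 3 and rhizobium replicate 2 at 24 h each correlated most with the other (0.939). Rhizobium replicate 3 at 20 h correlated most with nitrogen replicate 3 at 20 h (0.879). Nitrogen replicate 1 at 24 h did so with rhizobium replicate 1 at 20 h (0.854). Every remaining array was closest to one of its own treatment. Nitrogen replicate 1 at 24 h had a mean of 13.17 over 12 heat shock genes and 12.07 over 13 sulfur deficiency genes, while the rhizobium arrays reached 10.78 and 9.90. Nitrogen replicate 3 at 20 h had a mean of 12.02 over 11 hypoxia and haemoglobin genes, and nitrogen replicate 2 at 20 h had 11.51 over 5 green tissue markers, against highest rhizobium values of 9.58 and 8.49. Counts without the 2 arrays of lowest correlation, a choice made after seeing the data, are given for the calls and for some of the lists. Lists printed without them were not all unchanged.

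Of 27143 loci, 64 (0.236%) passed the test between nitrogen and rhizobium arrays over both hours (limma, Benjamini-Hochberg adjusted p below 0.05). On nitrogen arrays 18 loci were higher (0.0663%) and 46 were lower (0.169%). Loci selected on the mean of both hours are likely to share a sign at each hour. All 64 differences had the same sign at 20 and 24 h, and 56 were larger in size at 20 h. The smallest was 0.91 log2 units, and the standard error of the median locus was 0.51. The median difference over all loci was -0.03. Without any adjustment, 1255 loci (4.62%) were higher and 1555 (5.73%) lower with p below 0.05. The arrays of both treatments did not overlap at either hour for 13 of the 18 higher and 21 of the 46 lower calls, against 99 (0.365%) and 143 (0.527%) of all loci.

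The count of calls rested on single arrays. Leaving out 1 array at a time gave between 4 and 222 calls. The lowest counts came without rhizobium replicate 2 at 20 h (4), nitrogen replicate 2 at 24 h (5), nitrogen replicate 2 at 20 h (11) and rhizobium replicate 3 at 24 h (14). The highest came without nitrogen replicate 3 at 20 h (222), nitrogen replicate 3 at 24 h (166) and rhizobium replicate 3 at 20 h (115). Without the 2 arrays of lowest correlation, 8 loci passed, 7 of them among the 64. All 64 differences kept their sign in every setting in which the locus was tested. The settings share most of their arrays, so this was likely in advance. HRS1 and ARR9 passed in all 13 fits with an array left out, 10 of the 64 passed in at least 10, and 43 passed in 6 or fewer. Without the 2 arrays of lowest correlation HRS1 passed and ARR9 did not. Neither passed when only the 4 groups compared were fitted.

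**Figure D1:**
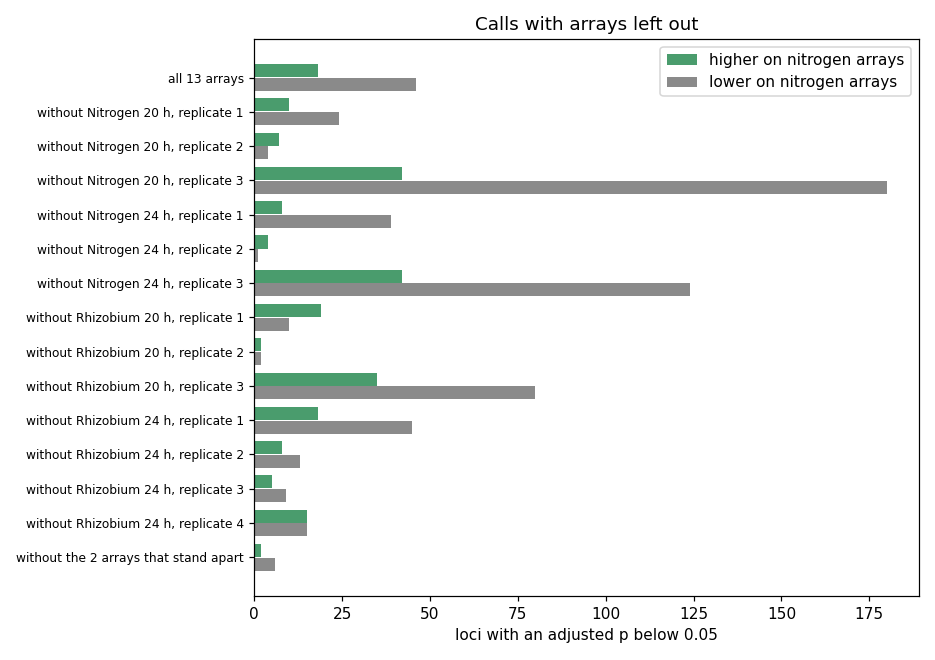
Number of loci with an adjusted p below 0.05 (x axis), higher (green) and lower (grey) on nitrogen than on rhizobium arrays, with all 13 arrays, with each array left out and without the 2 arrays of lowest correlation. Counts run from 4 without rhizobium replicate 2 at 20 h to 222 without nitrogen replicate 3 at 20 h.

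HRS1 (AT1G13300), a transcriptional repressor induced by nitrate and known for a short primary root under low phosphate, had the smallest adjusted p. On nitrogen arrays its log2 intensity was 13.61, 13.84 and 13.21 at 20 h and 13.60, 13.02 and 12.92 at 24 h. On rhizobium arrays it was 10.73, 6.69 and 9.59 at 20 h and 11.66, 10.17, 9.76 and 11.92 at 24 h. The nitrogen arrays were close to each other and all lay above every rhizobium array, which were spread widely. HRS1 was higher by 3.43 ± 0.50 log2 units (SE), a 10.7-fold difference (adjusted p = 0.0001). At 20 h alone the difference was 4.55 ± 0.73 (adjusted p = 0.0012). At 24 h alone it was 2.3 ± 0.68, which did not pass (adjusted p = 0.65), and the change between the hours did not pass either (-2.24 ± 0.99, adjusted p = 1).

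AT3G25790, which has no gene name in the RefSeq table, showed the largest difference of the higher calls. It had log2 intensities of 13.14, 13.74 and 10.67 at 20 h and 13, 13.39 and 11.37 at 24 h on nitrogen arrays. On rhizobium arrays it had 9.13, 8.02 and 6.91 at 20 h and 9.61, 5.66, 5.80 and 10.63 at 24 h. The groups did not overlap at either hour, although the lowest nitrogen value lay only just above the highest rhizobium value. The difference was 4.58 ± 1.00 (adjusted p = 0.03), and it passed in 6 of the 13 fits with an array left out.

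**Figure D2:**
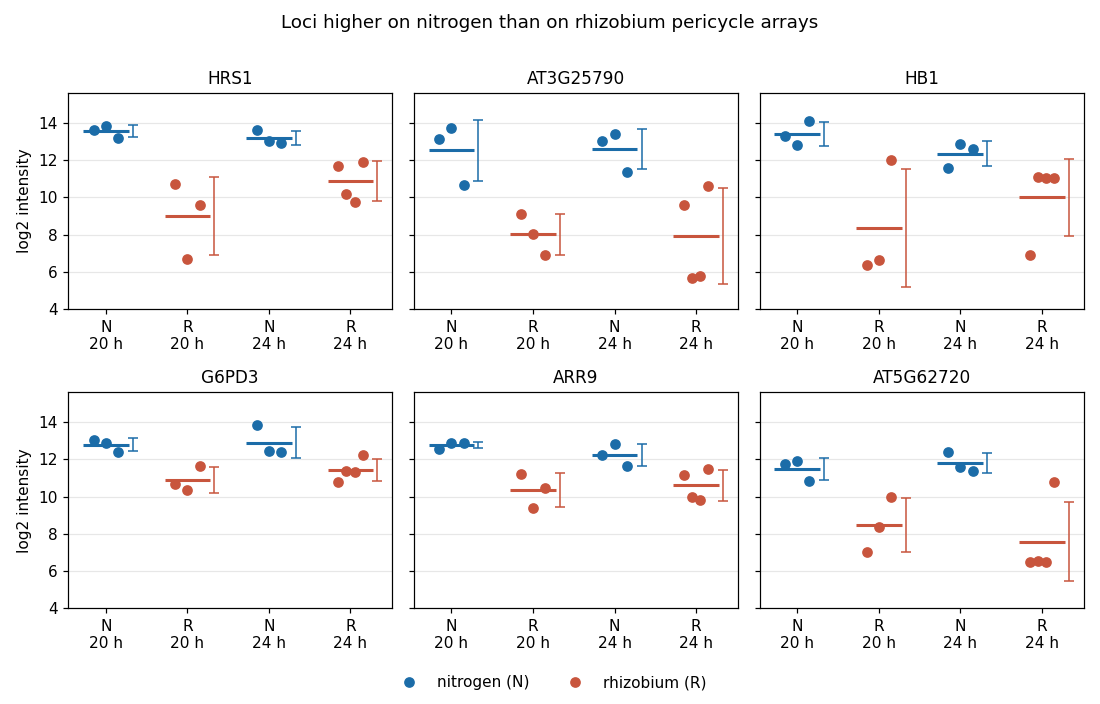
Log2 intensity (y axis) of 6 loci called higher, on each nitrogen (N) and rhizobium (R) array at 20 and 24 h, with group means as lines and SDs as bars. HRS1 lies between 12.92 and 13.84 on nitrogen arrays and between 6.69 and 11.92 on rhizobium arrays.

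Of the 32 nitrate regulators listed, 2 were called higher (HRS1 and AT3G25790) and 1 lower, the transcription factor gene NLP9. The list median was 0.16. Before adjustment 7 were higher (21.9%) and 4 lower (12.5%) with p below 0.05, against 4.62% and 5.73% of all loci. NLP9 (AT3G59580), a NIN-like protein, had 4.68, 6.99 and 4.97 at 20 h and 6.2, 6.31 and 10.64 at 24 h on nitrogen arrays. The rhizobium arrays gave 12.90, 11.32 and 6.18 at 20 h and 13.71, 11.76, 11.77 and 8.99 at 24 h. One array of each treatment crossed over: rhizobium replicate 3 at 20 h was as low as nitrogen arrays, and nitrogen replicate 3 at 24 h exceeded the lowest rhizobium value. The difference was -4.21 ± 0.94 (adjusted p = 0.031), which passed in 4 of the 13 fits with an array left out.

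Other regulators had differences that did not pass. TGA1, a bZIP factor of the nitrate response, averaged 1.78 ± 0.45 (adjusted p = 0.067). The nitrate-induced repressors LBD37, LBD38 and LBD39 averaged 0.67, 0.99 and 1.59, with adjusted p from 0.18 to 0.37. NLP8 and NLP3 averaged -1.79 and -1.74 (adjusted p = 0.35 and 0.33). NLP7, the main nitrate sensor of the family, averaged -0.25 ± 0.33 (adjusted p = 0.85).

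Among 24 nitrate transport genes 1 locus passed, AT5G62720, which has no gene name in the RefSeq table. On nitrogen arrays it had 11.76, 11.91 and 10.81 at 20 h and 12.40, 11.57 and 11.39 at 24 h. Its rhizobium values were 7.05, 8.39 and 9.96 at 20 h and 6.50, 6.56, 6.50 and 10.78 at 24 h. No rhizobium array reached a nitrogen array of its hour, and rhizobium replicate 4 at 24 h lay far above the other three. The difference was 3.61 ± 0.76 (adjusted p = 0.027). CLCA, the vacuolar nitrate exchanger, did not overlap at either hour either but did not pass (1.55 ± 0.43, adjusted p = 0.1). The nitrate transporter and sensor NPF6.3 averaged -0.16 ± 0.61 and the high-affinity transporter NRT2.1 -0.08 ± 0.66. NRT3.1, the partner protein of NRT2 transporters, averaged -2.78 ± 0.93 (adjusted p = 0.21).

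Genes of nitrate assimilation and its reductant supply gave 1 call in 21, G6PD3. Before adjustment 8 of the 21 were higher (38.1%) and 0 lower with p below 0.05, and 6 were higher without the 2 arrays of lowest correlation. Of all loci, 4.62% were higher by that rule, and 3.1% without those arrays. The list median was 0.25, and 0.06 without those arrays. G6PD3 (AT1G24280), a plastid glucose-6-phosphate dehydrogenase that supplies NADPH, had 13.05, 12.87 and 12.38 at 20 h and 13.84, 12.45 and 12.38 at 24 h on nitrogen arrays. On rhizobium arrays it had 10.66, 10.33 and 11.65 at 20 h and 10.78, 11.36, 11.30 and 12.20 at 24 h. Every nitrogen array was above every rhizobium array, by 1.68 ± 0.34 on average (adjusted p = 0.02). RFNR1 and RFNR2, the root ferredoxin reductases that carry electrons from NADPH, averaged 1.66 ± 0.48 and 1.36 ± 0.41 (adjusted p = 0.11 and 0.14). Nitrite reductase NIR1 averaged 0.80 ± 0.31 (adjusted p = 0.3), while the nitrate reductases NIA1 and NIA2 averaged 0.25 ± 0.23 and 0.03 ± 0.20.

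HB1 (AT2G16060), a class 1 haemoglobin that removes nitric oxide and is known to respond to nitrate and to low oxygen, was the only call among 11 hypoxia and haemoglobin genes. On nitrogen arrays it had 13.27, 12.81 and 14.08 at 20 h and 11.60, 12.85 and 12.60 at 24 h. The rhizobium arrays gave 6.39, 6.65 and 12.01 at 20 h and 6.89, 11.10, 11.02 and 11.02 at 24 h. The groups did not overlap at either hour, and the rhizobium arrays fell into low and high values at both hours. HB1 was higher by 3.69 ± 0.84 (adjusted p = 0.035), which passed in 6 of the 13 fits with an array left out. The oxygen-responsive gene PCO2 was high on 1 array, nitrogen replicate 3 at 20 h (12.24), and ADH1, alcohol dehydrogenase, averaged -0.78 ± 0.28 (adjusted p = 0.24).

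Genes that plants switch on when nitrogen is scarce showed no call among 20, with a list median of -0.70. Before adjustment 8 of the 20 were lower (40%) and 0 higher with p below 0.05. The same counts were found without the 2 arrays of lowest correlation. Of all loci, 5.73% were lower and 4.62% higher by that rule, and 4.8% and 3.1% without those arrays. DUR3, the high-affinity urea transporter, had 4.63, 5.02 and 9.19 at 20 h and 6.86, 5.49 and 11.07 at 24 h on nitrogen arrays. Its rhizobium values were 11.69, 7.56 and 12.59 at 20 h and 12.70, 12.24, 12.45 and 11.92 at 24 h. Nitrogen replicate 3 of each hour was higher than the other nitrogen arrays, and at 24 h no nitrogen array reached a rhizobium array. The difference was -4.43 ± 1.11 (adjusted p = 0.065). AMT1;1, an ammonium transporter, averaged -1.52 ± 0.43, GLN1;4, a cytosolic glutamine synthetase, -1.37 ± 0.40, and ASN1, an asparagine synthetase, -1.39 ± 0.39, with adjusted p of 0.11, 0.12 and 0.1.

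**Figure D3:**
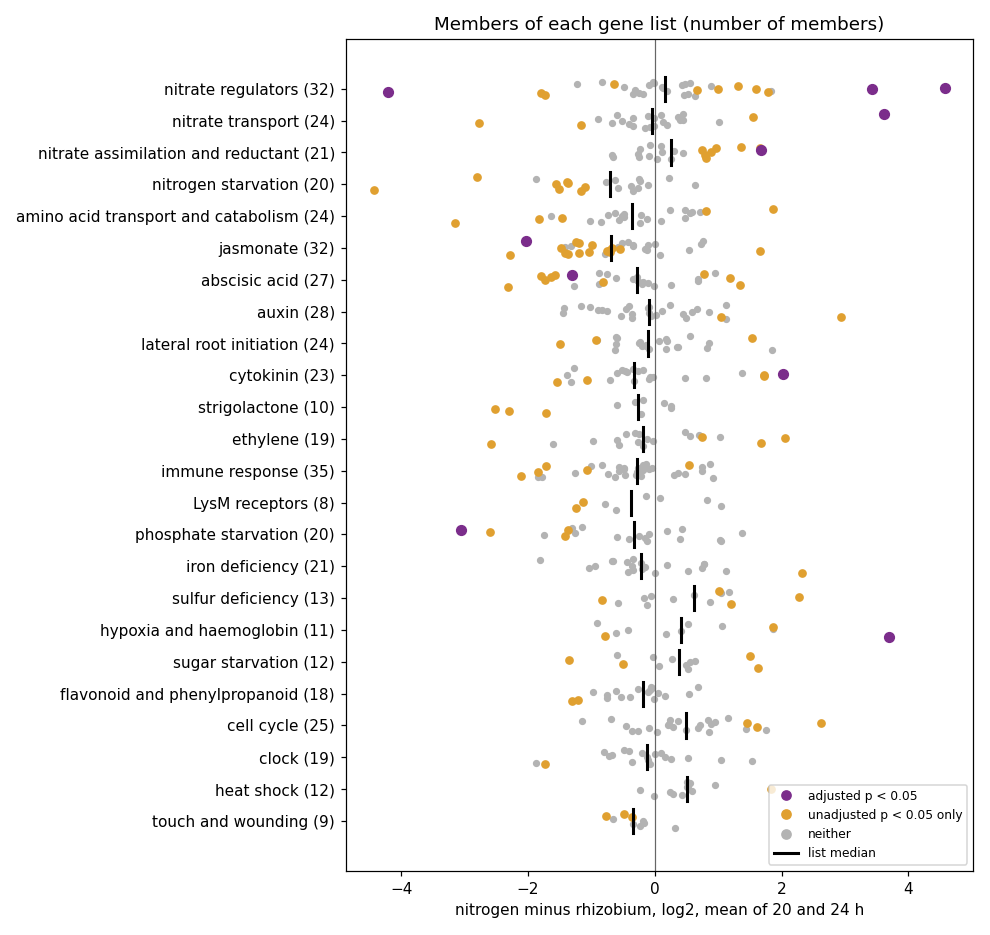
Nitrogen minus rhizobium difference in log2 units (x axis, mean of 20 and 24 h) of each member of 24 gene lists (rows, number of members in brackets); purple points passed the adjusted test, orange points only the unadjusted one, and black bars are list medians. The jasmonate (-0.68) and nitrogen starvation (-0.70) lists have the lowest medians of these lists.

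Jasmonate genes were the list with the most members below 0.05 before adjustment. Jasmonates are made from plastid trienoic fatty acids by lipoxygenases, AOS, AOC and OPR3, are conjugated to isoleucine by JAR1, act by removing JAZ repressors, and are inactivated by CYP94 enzymes. Of 32 members, 15 were lower (46.9%) and 1 higher (3.12%) with unadjusted p below 0.05. Without the 2 arrays of lowest correlation these counts were 14 and 1. Of all loci, 5.73% were lower and 4.62% higher by that rule, and 4.8% and 3.1% without those arrays. With an array left out the lower count of the list ran from 9 to 17. The list median was -0.68, 26 members were below 0 and 6 above.

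CYP94B3 (AT3G48520), which hydroxylates jasmonoyl-isoleucine, was the only member that passed. On nitrogen arrays it had 10.29, 9.15 and 10.39 at 20 h and 12.73, 9.94 and 12.29 at 24 h. On rhizobium arrays it had 12.68, 13.02 and 12.33 at 20 h and 12.45, 13.13, 13.12 and 13.26 at 24 h. The treatments were apart at 20 h, and at 24 h nitrogen replicate 1 lay within the rhizobium range. The difference was -2.03 ± 0.42 (adjusted p = 0.021).

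Members at several steps of the pathway had differences that did not pass. At the start, LOX3 averaged -2.28 ± 0.58 (adjusted p = 0.067), LOX4 -1.37 ± 0.52 (0.3) and AOS -1.41 ± 0.38 (0.099). OPR3 averaged -0.76 ± 0.21 (adjusted p = 0.1) and JAR1 -0.71 ± 0.23 (0.19). Of the repressors, JAZ5 averaged -1.48 ± 0.53 (adjusted p = 0.25) and JAZ1 -0.15 ± 0.12 (0.74). The regulator MYC2 averaged -0.10 ± 0.18. Of the 6 members above 0, only AOC4 had an unadjusted p below 0.05 (1.66 ± 0.62, adjusted p = 0.28).

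FAD7 (AT3G11170), the plastid desaturase that makes trienoic fatty acids, is outside that list and was called lower. It had 11.86, 10.90 and 12.45 at 20 h and 12.17, 10.97 and 13.18 at 24 h on nitrogen arrays. The rhizobium arrays gave 13.72, 14.20 and 12.63 at 20 h and 13.41, 13.33, 13.83 and 13.93 at 24 h. The groups did not overlap within either hour, and the difference was -1.65 ± 0.36 (adjusted p = 0.027).

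**Figure D4:**
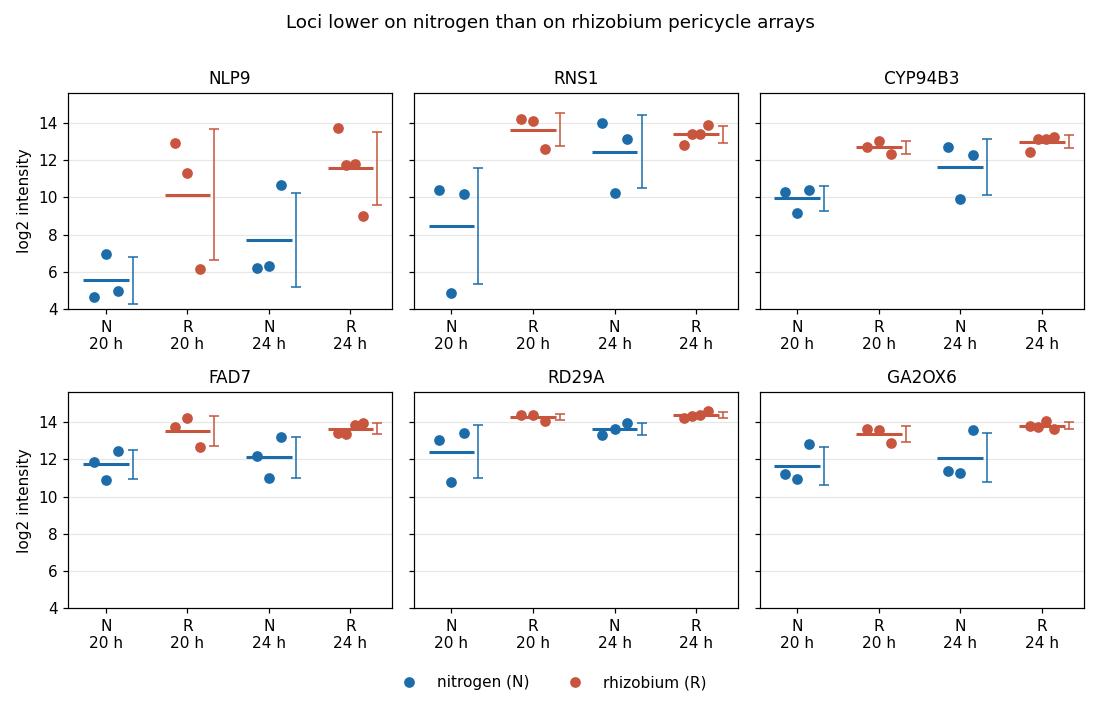
Log2 intensity (y axis) of 6 loci called lower, on each nitrogen (N) and rhizobium (R) array at 20 and 24 h, with group means as lines and SDs as bars. RNS1 averages 8.46 on nitrogen and 13.64 on rhizobium arrays at 20 h, and 12.45 and 13.39 at 24 h.

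Among 27 abscisic acid genes 1 was called, RD29A, a classic reporter of drought, cold and abscisic acid. It had 13.02, 10.76 and 13.41 at 20 h and 13.31, 13.62 and 13.93 at 24 h on nitrogen arrays. Its rhizobium values were 14.39, 14.35 and 14.07 at 20 h and 14.22, 14.33, 14.35 and 14.57 at 24 h. Every nitrogen array was below every rhizobium array, and nitrogen replicate 2 at 20 h was the lowest. The difference was -1.31 ± 0.29 (adjusted p = 0.031), which passed in 5 of the 13 fits with an array left out. Before adjustment 7 members were lower (25.9%) and 3 higher (11.1%) with p below 0.05, against 5.73% and 4.62% of all loci. Among these members were NCED3, a key enzyme of abscisic acid synthesis (-2.32 ± 0.84, adjusted p = 0.26), and the receptor gene PYL4 (0.77 ± 0.24, adjusted p = 0.17). COR15B, a cold-regulated plastid protein outside the list, was also called lower (-2.78 ± 0.59, adjusted p = 0.027).

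In the cytokinin list of 23, the type A response regulator ARR9 passed. Type A regulators are induced by cytokinin and dampen its signal. ARR9 (AT3G57040) had 12.56, 12.86 and 12.88 at 20 h and 12.25, 12.82 and 11.61 at 24 h on nitrogen arrays. On rhizobium arrays it had 11.23, 9.41 and 10.44 at 20 h and 11.13, 9.98, 9.83 and 11.46 at 24 h. Every nitrogen array was above every rhizobium array, by 2.02 ± 0.35 on average (adjusted p = 0.0034), and at 20 h alone the difference was 2.41 ± 0.51 (adjusted p = 0.044). ARR8, of the same type, did not overlap at either hour but did not pass (1.73 ± 0.42, adjusted p = 0.052). ARR4, ARR5, ARR7 and ARR15, also type A, averaged -0.03, -0.08, -1.38 and -0.59, and none of them passed. The list median was -0.33.

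The phosphate starvation list of 20 had 1 call. RNS1 (AT2G02990), a ribonuclease induced when phosphate is scarce and after wounding, had 10.38, 4.85 and 10.16 at 20 h and 13.98, 10.24 and 13.14 at 24 h on nitrogen arrays. The rhizobium arrays gave 14.20, 14.12 and 12.60 at 20 h and 12.81, 13.41, 13.41 and 13.91 at 24 h. The groups were apart at 20 h and overlapped at 24 h, where nitrogen replicate 1 was the highest array. RNS1 passed over both hours in 6 of the 13 fits with an array left out. The mean difference was -3.06 ± 0.69 (adjusted p = 0.031), with -5.18 ± 1.00 at 20 h (adjusted p = 0.027) and -0.94 ± 0.94 at 24 h (adjusted p = 1). MGD3, which makes galactolipids in place of phospholipids, averaged -2.60 ± 0.71 (adjusted p = 0.099), and the signal gene SPX1 averaged 1.04 ± 0.90 (adjusted p = 0.75).

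Lists for contact with microbes held no call. Of 35 immune response genes, 4 were lower (11.4%) and 1 higher (2.86%) with unadjusted p below 0.05, and the list median was -0.28. Of all loci, 5.73% were lower and 4.62% higher by that rule. RBOHD, the oxidase of the immune oxidative burst, averaged -1.07 ± 0.30 (adjusted p = 0.11), and WRKY33, an immune transcription factor, -0.22 ± 0.14 (adjusted p = 0.6). Among 8 LysM receptors, which recognise chitin and related sugars, LYK5 averaged -1.13 ± 0.52 (adjusted p = 0.41).

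Lists for root branching held none either. Of 24 lateral root initiation genes 1 was higher (4.17%) and 2 lower (8.33%) before adjustment, against 4.62% and 5.73% of all loci. LBD16, which acts in founder cells, averaged 1.85 ± 1.05 (adjusted p = 0.56). Of 28 auxin genes 2 were higher (7.14%) and 0 lower. Of 25 cell cycle genes 3 were higher (12%) and 0 lower, with a median of 0.49, and the replication factor gene MCM6 averaged 2.62 ± 1.07 (adjusted p = 0.34).

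Other higher calls without overlap included STY46, a kinase that phosphorylates chloroplast transit peptides (2.34 ± 0.52, adjusted p = 0.031), TRM28, of a family that recruits TON1 to microtubules (2.34 ± 0.51, adjusted p = 0.027), and the meiotic axis gene ASY3 (2.59 ± 0.61, adjusted p = 0.044). AT1G61667 lay between 8.02 and 10.13 on nitrogen arrays and between 5.14 and 6.19 on rhizobium arrays, so the groups were well apart (3.73 ± 0.86, adjusted p = 0.038). Of the 13 fits with an array left out, TRM28 passed in 6, STY46 in 4, and ASY3 and AT1G61667 in 3 each. AT1G59960, which has no gene name in the RefSeq table, averaged 1.64 ± 0.30 (adjusted p = 0.011). It passed in 12 of the 13 fits with an array left out, but not without the 2 arrays of lowest correlation.

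Other lower calls without overlap were led by AT2G36630 (-4.13 ± 0.82, adjusted p = 0.019). NPQ1, the violaxanthin de-epoxidase of the xanthophyll cycle, had 7.67, 7.55 and 7.75 at 20 h and 7.93, 7.84 and 6.87 at 24 h on nitrogen arrays. Its rhizobium values were 11.41, 11.87 and 10.47 at 20 h and 8.16, 9.57, 11.04 and 9.20 at 24 h. The nitrogen arrays were level and low, and the difference was -2.77 ± 0.59 (adjusted p = 0.027). Also lower were PMAT2, a malonyltransferase of phenolic glucosides (-3.41 ± 0.82), the ion channel gene CNGC10 (-2.61 ± 0.62), GA2OX6, which inactivates gibberellins (-1.72 ± 0.40), SUO, which acts in translational repression by microRNAs (-1.63 ± 0.35), and IQD22, a calmodulin-binding protein (-1.42 ± 0.34). Of the 13 fits with an array left out, SUO passed in 7, CNGC10 and GA2OX6 in 4 each, and PMAT2 and IQD22 in 3 each.

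Each hour alone gave few calls. At 20 h 8 loci passed (0.0295%), 2 higher (HRS1 and ARR9) and 6 lower, with RNS1, the trehalose phosphate synthase gene TPS11 and the early nodulin-like gene ENODL9 among them. At 24 h limma called 0 loci, with 1326 (4.89%) below 0.05 before adjustment. The difference between the hours was tested directly and gave 0 calls, with 982 loci (3.62%) below 0.05 before adjustment.

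The same contrast at other hours used other arrays, 30 at 8 to 16 h and 11 at 36 to 48 h, against 13 at 20 to 24 h. Precision differs with the number of arrays, so the counts of calls do not compare the size of the differences. All windows shared 1 estimate of the spread of each locus, so calls found in more than 1 window are not independent. Nitrogen minus rhizobium at 8 to 16 h had 638 calls (2.35%), of which 304 (1.12% of all loci) were higher and 334 (1.23%) lower. At 36 to 48 h there were 275 calls (1.01%), 65 higher (0.239%) and 210 lower (0.774%). Of the 18 higher calls at 20 to 24 h, 7 were also higher at 8 to 16 h (38.9% of the 18 and 2.3% of the 304), and 8 at 36 to 48 h (44.4% of the 18 and 12.3% of the 65). Of the 46 lower calls, 21 were also lower at 8 to 16 h (45.7% of the 46 and 6.29% of the 334), and 22 at 36 to 48 h (47.8% of the 46 and 10.5% of the 210). The difference was negative at 8 to 16 h for 45 of the 46, and positive for 18 of the 18. At 36 to 48 h it was negative for 42 of the 46 and positive for 17 of the 18.

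HRS1 differed by 1.19 at 8 to 16 h (adjusted p = 0.042) and by 2.68 at 36 to 48 h (adjusted p = 0.0036). NLP9 differed by -4.33 (adjusted p = 3.2e-05) and -7.12 (adjusted p = 4.6e-05) in those windows. The change between windows did not pass for either gene. CYP94B3 differed by -0.76 at 8 to 16 h, which did not pass, and by -2.34 at 36 to 48 h (adjusted p = 0.0024). Of the 32 jasmonate genes 12 were called lower in each of those windows, against 1.23% of all loci at 8 to 16 h and 0.774% at 36 to 48 h.

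**Figure D5:**
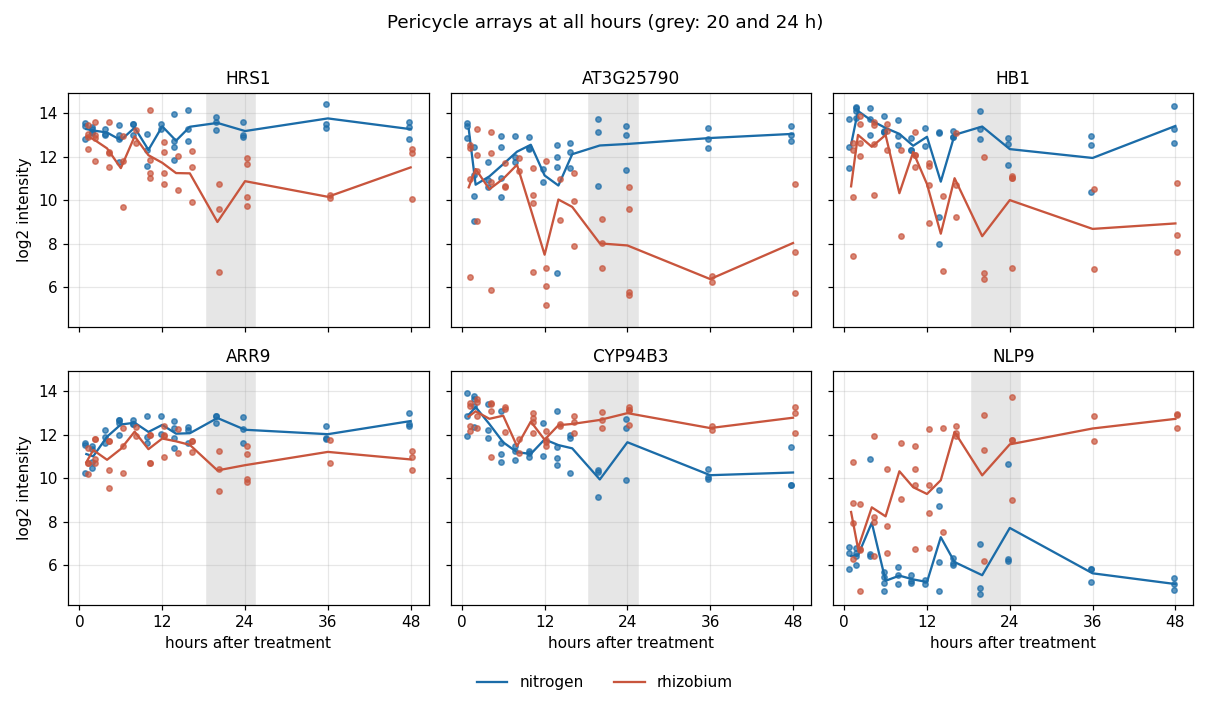
Log2 intensity (y axis) of 6 loci on every nitrogen (blue) and rhizobium (red) pericycle array over the hours after treatment (x axis), with lines through the group means and the 20 and 24 h groups on grey. At 20 h the mean of HRS1 is 13.55 on nitrogen and 9.01 on rhizobium arrays, and that of NLP9 5.54 and 10.13.

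Direct tests against other windows and the cortex gave few calls. Against 8 to 16 h 1 locus passed (0.00368%), AT5G49530, with a nitrogen minus rhizobium difference of -1.70 at 20 to 24 h and 1.41 at 8 to 16 h. Against 36 to 48 h 2 loci passed (0.00737%): ENODL9, with -3.29 and 2.78, and AT3G54240, with -1.72 and 2.87. Against cortex arrays of the same hours 1 locus passed (0.00368%), FIB1, a fibrillarin of the nucleolus, with -0.08 in pericycle and 4.04 in cortex.

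In cortex, 447 loci were called at 20 to 24 h (1.65%), 336 higher (1.24%) and 111 lower (0.409%). These calls compare 11 cortex arrays, with a spread estimated from 153 arrays of both cell types. Precision thus differs from that of the pericycle calls, and the counts do not compare the size of the differences. Calls found in both cell types are not independent, as the pericycle arrays entered both estimates of the spread. Of the pericycle calls, 7 of the 18 higher (38.9%, and 2.08% of the 336 in cortex) and 7 of the 46 lower (15.2%, and 6.31% of the 111) were called the same way there. The cortex difference had the same sign for 15 of the 18 and 43 of the 46. HB1, AT5G62720 and G6PD3 differed by 5.23, 4.72 and 2.14 in cortex and NLP9 by -6.27, all called. HRS1 differed by 0.99 in cortex (adjusted p = 0.5) and ARR9 by 0.58 (adjusted p = 0.89). The gap between the cell types did not pass for HRS1 (2.43 ± 0.63, adjusted p = 0.24) or ARR9 (1.44 ± 0.58, adjusted p = 0.62). Of the 32 jasmonate genes limma called 0 in cortex at these hours, where 6 were lower with an unadjusted p below 0.05, as were 3.79% of all loci.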

How the data were processed

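Total RNA of sorted root cells was amplified, labelled with Cy3 and hybridised to a custom NimbleGen array built from TAIR10, per the labels' protocols. The log2 intensities the authors deposited come from RMA (submitters' processing notes); no software version is given in the sources used here. They span 31524 rows and run from 3.69 to 15.53, without background flags, so whether a dim locus was detected is unknown. Rows of a locus were averaged (3675 of 27143 loci had several) with no further scaling or filter, and the number of arrays limits the precision.

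Groups came from sample titles. Using limma 3.58.1 (R 4.3.3), a mean per group was estimated on the 83 pericycle nitrogen and rhizobium arrays (26 groups, residual df 57, prior df 3.03), which share 1 estimate of the spread, with Benjamini-Hochberg adjustment over all loci. The comparison with cortex used 153 arrays in 52 groups. Differences are nitrogen minus rhizobium on the log2 scale, ± is SE, and the change between hours, windows or cell types was tested as an interaction. The fit was tested on simulated data.

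Named loci are the 15 largest differences in each direction among calls whose arrays do not overlap at 20 h nor at 24 h, the 5 largest calls in each direction of each interaction, and members of 32 gene lists with 545 loci. Members and lists were chosen with earlier results of these data known. Of the loci, 26555 were found in the RefSeq table (TAIR10.1), the source of gene names. No promoter sequence was used here. To look for pairing, the mean of its group was subtracted from each array at every locus. At 20 h the remainders of nitrogen and rhizobium arrays of the same replicate number correlated at 0.0289, 0.11 and 0.18. Pairs of different number ran from -0.15 to 0.0488. At 24 h the same-number values were 0.0402, -0.107 and 0.0837, and the others ran from -0.305 to 0.272. Arrays were not paired. No 2 arrays of a group were near-identical. Alternatives were median centring, quantile normalization, leaving out dim loci, the brightest row per locus, fits on fewer or more groups, a trended prior, array weights, a replicate block and leaving out arrays.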

Additional observations from a re-analysis of the deposited data

Results flagged for a closer look

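The 4 rhizobium arrays at 24 h were searched for an array far from the other 3, at 139 loci, by the gap to the nearest array as a share of the whole range. By chance alone about 1 in 20 groups is picked out, and 13 loci were.

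Replicate 1 was the low array at 6 loci. It had 6.89 for HB1 (others 11.02 to 11.10), 13.71 for LOX3 (14.45 to 14.56), 12.45 for CYP94B3 (13.12 to 13.26), 12.35 for AIB (13 to 13.11), 11.67 for NHL10 (14.35 to 14.53) and 12.32 for HAI1 (13.54 to 13.72). It was the high array for SWEET11, at 6.51 (5.77 to 5.82). HB1 and CYP94B3 are calls of the comparison, LOX3 and AIB are jasmonate genes.

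Replicate 4 was the high array for AT5G62720, at 10.78 (6.50 to 6.56), for AT3G54240, at 8.65 (5.93 to 6.26), and for IDA, at 8.35 (6.95 to 7.02). Replicate 3 was the low array for ACO1, at 6.79 (10.60 to 11.26), and for PROT2, at 10.71 (11.11 to 11.20). Replicate 2 was the high array for JAR1, at 14.27 (13.15 to 13.29).

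At 4 loci the nitrogen minus rhizobium difference changed between windows or cell types. AT5G49530 changed by -3.11 ± 0.58 log2 units between 20 to 24 h and 8 to 16 h (limma, adjusted p = 0.041). ENODL9 changed by -6.07 ± 1.15 (adjusted p = 0.024) and AT3G54240 by -4.60 ± 0.70 (adjusted p = 0.00033) between 20 to 24 h and 36 to 48 h. FIB1 differed by -4.12 ± 0.79 between pericycle and cortex (adjusted p = 0.027).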

How the results depend on the processing

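The 64 calls became 1 with only the 4 groups fitted (AT1G61667), 415 with all 80 groups, 239 with array weights, 28 with the replicate block and 8 without the 2 arrays of lowest correlation (chosen after seeing the data). They stayed within 1.5 times (58 to 82) under 5 other settings. With 1 array left out, calls ran from 4 to 222 over both hours, 1 to 112 at 20 h, 0 to 32 at 24 h, 0 to 1 for the change between hours, 0 to 5 against 8 to 16 h, 1 to 3 against 36 to 48 h and 0 to 4 against cortex. At 20 h, 8 calls became 40 with quantile normalization, 29 without dim loci, 0 with only the 4 groups, 230 with all 80 groups, 20 with a trended prior and 1 without the 2 arrays. At 24 h, 0 calls became 18 with all 80 groups and 1 each with array weights, the replicate block and without the 2 arrays.

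Against 8 to 16 h, 1 call became 0 with centring, only the groups compared or a trended prior, 10 with all groups and 2 without the 2 arrays. Against 36 to 48 h, 2 calls became 1 without dim loci or without the 2 arrays, and 0 with only the groups compared or the replicate block. Against cortex, 1 call became 0 with the brightest row, only the groups compared, the replicate block or without the 2 arrays, 4 with all groups, 2 with a trended prior and 18 with array weights. ABF2 averaged 1.18 in the main analysis, uncalled, and -0.37 with the brightest row. The causes were not tested.

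Replicate numbers were not used as pairs in the main fit. After subtraction of group means, nitrogen replicates 2 and 3 at 20 h correlated most with the rhizobium array of their own number. Nitrogen replicate 1 at 20 h and the nitrogen arrays at 24 h did not. These values do not settle whether the numbers mark pairs. With the replicate block 28 loci were called, 24 of them among the 64. An uncalled locus is not thereby shown to be equal between the treatments.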
